A study of Rattus norvegicus with 20 samples.

Results

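The 7 genes described here, which muscle uses to sense stretch, to rebuild fibres and to set mitochondrial metabolism, were followed in the oesophagus of rats with surgically induced reflux oesophagitis. They were Ankrd1, Ankrd2, Csrp3, Mss51 (named Zmynd17 on the array), Ostn, Myog and Myod1, taken by gene name from the arrays, 7 of 17479 genes or unnamed probes tested. They had been picked because of how they differed between these same groups. Their values are therefore given as a description, with no p-value. All 7 passed the filter on dim probes, each through 1 probe, and none was left out.

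The tissue came from 20 Wistar rats in 5 groups of 4, with 1 array each. High-dose STW5 rats received 2 ml/kg of STW5, a fixed mixture of plant extracts, and low-dose rats received 0.5 ml/kg. Omeprazole rats received 30 mg/kg of this proton pump inhibitor, which blocks gastric acid secretion. All 3 drug groups had the reflux operation, with dosing for 7 days before it and 10 days after it. Untreated rats had the reflux operation and no drug, and sham rats had a sham operation. All 5 groups, sham and untreated included, are listed at 10 days after surgery. The layers of the wall in each piece, the sex and the age of the rats are not given in the sources used here.

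Low-dose replicates 1 and 2 differed from each other by little more than 2 spots of a probe on the same array do (1.39 times that spread, against at least 2.77 times in every other pair within a group), and were counted as 1 sample, so the low-dose group had n = 3. Between 61.5% and 70.5% of an array's features were well above background and none was saturated. The arrays fell into 3 sets by scan date, called scan sets here, and no slide identifier was read. Scan set 2 held the low-dose and the untreated rats, scan set 3 held the high-dose and the omeprazole rats, and scan set 1 held sham rats alone. In comparisons with sham, and of high-dose STW5 or omeprazole with untreated rats, scan set and group cannot be told apart. The same holds for low-dose STW5 against high-dose STW5 or omeprazole. The 2 doses of STW5 may be exchanged: in the authors' deposited value table all 8 STW5 columns hold the signals scanned for rats of the opposite dose, and the other 12 columns hold those of their own rats. Dose names below follow the scanner files. Sham replicate 2 stood apart from the other sham arrays toward the reflux groups. Several results that rest on it are given with and without it, but not all.

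The muscle coat of the rat oesophagus is striated along its whole length, unlike that of most other gut segments. In such fibres the giant protein titin spans the half-sarcomere and carries passive tension, and the muscle ankyrin repeat proteins Ankrd1 and Ankrd2 bind its spring region and move to the nucleus, where they act on transcription. Csrp3, or muscle LIM protein, sits at the Z-disc and is required for the response of muscle to load. Mss51 is a mitochondrial protein of fast skeletal muscle that in mice restrains oxidative metabolism. Ostn encodes osteocrin, a peptide secreted by bone and muscle that binds the natriuretic peptide clearance receptor Npr3. Myod1 commits cells to the muscle lineage and Myog drives their terminal differentiation, and both bind the DNA letters known as the E-box.

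The array sequences behind the 4 genes that differed most between untreated and sham rats are shown because every level below rests on a single 60-base probe. Coordinates are those of the array files, on rat build rn4. The Ankrd2 probe lies at chr1:248807215-248807926 on the minus strand, a span longer than the probe. The Ankrd1 probe lies at chr1:240316831-240316890 on the minus strand, the Mss51 probe at chr15:4045372-4045431 on the plus strand and the Ostn probe at chr11:75432580-75432639 on the minus strand. Capitals mark the longest run of bases that the Ankrd1 and Ankrd2 probes share, which is 5 bases, so the signals of these related genes come from unlike sequences. The other 2 probes have no capitals.
Ankrd2 probe: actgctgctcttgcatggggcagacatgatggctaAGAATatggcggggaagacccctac
Ankrd1 probe: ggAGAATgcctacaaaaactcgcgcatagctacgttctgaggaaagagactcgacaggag
Mss51 probe: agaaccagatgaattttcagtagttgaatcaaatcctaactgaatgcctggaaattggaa
Ostn probe: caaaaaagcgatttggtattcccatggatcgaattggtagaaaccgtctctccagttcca

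Promoter sequence was at hand for 3 of the 7 genes, Ankrd2, Mss51 and Myog, from RefSeq on build GRCr8. The 250 bases before the starts that the promoter table gives for Ankrd2 (chr1:250796169-250796418, plus strand) and Mss51 (chr15:3856494-3856743, plus strand) are shown because these genes had large differences in opposite directions. The Mss51 window lies within the gene as the gene table spans it (chr15:3855094-3868614), which begins further upstream. Capitals mark E-boxes, spelled CANNTG, which read alike on both strands.
Ankrd2 promoter: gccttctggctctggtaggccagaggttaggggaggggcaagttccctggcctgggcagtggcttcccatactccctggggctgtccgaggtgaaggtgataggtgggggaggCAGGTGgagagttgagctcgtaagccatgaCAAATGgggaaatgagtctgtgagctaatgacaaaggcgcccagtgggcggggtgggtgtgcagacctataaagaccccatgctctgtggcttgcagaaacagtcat
Mss51 promoter: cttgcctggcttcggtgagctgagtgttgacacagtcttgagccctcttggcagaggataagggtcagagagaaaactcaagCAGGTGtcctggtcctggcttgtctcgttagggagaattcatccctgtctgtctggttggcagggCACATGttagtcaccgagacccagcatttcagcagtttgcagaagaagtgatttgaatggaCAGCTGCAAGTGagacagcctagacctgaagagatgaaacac
There were 2 E-boxes before Ankrd2, 4 before Mss51 and 2 before Myog, and no E-box overlapped another. Of 33469 rat promoters of the same length, 65.5% held at least 1 E-box. The letters CATTCC, the M-CAT element searched on both strands, were in none of the 3 windows and in 12.1% of all promoters. The letters TATAAA, searched in the same way, were found 1 time, before Ankrd2, and in 12.9% of all promoters. These matches are a description of letters and were not tied to binding.

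Every level below is the log2 of a gene's signal relative to the 75th percentile of its array, so that 0 is the signal of a fairly bright feature and each unit is a doubling. Differences are given on the same log2 scale with their standard error (SE) from the fit over all samples. Levels of different genes are not set against each other, since probes differ in brightness. In whole tissue, fewer cells of a type and less RNA per cell cannot be told apart.

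Ankrd1 and Ankrd2, the titin-binding stretch genes, were far higher in untreated reflux oesophagus than in sham oesophagus. With low-dose STW5 and with omeprazole they lay wholly below the untreated rats. With high-dose STW5 their means were lower too, with overlap. Ankrd1 levels were -0.26, -1.84, 3.29 and 1.12 in untreated rats, against -7.31, -2.97, -6.64 and -6.46 in sham rats. All untreated values lay above all sham values, and sham replicate 2 was the closest to them. Ankrd1 was well above background in only 1 of the 4 sham arrays, that of replicate 2, and in all 16 other arrays, so the sham level is poorly measured and no fold is given. The difference of 6.42 ± 1.00 (SE, n = 4 each) depends on these dim sham signals, and it was 3.72 with the normexp background correction, which adds an offset that compresses dim signals. It was 7.38 without sham replicate 2 and 5.52 without untreated replicate 3, the highest of its group.

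Ankrd2 levels were 0.36, 1.27, 6.08 and 2.85 in untreated rats, against -5.24, -1.64, -5.13 and -4.36 in sham rats. Again the groups did not overlap, untreated replicate 3 was highest and sham replicate 2 stood nearest to the untreated rats. The untreated mean was 2.64 ± 2.51 and the sham mean was -4.09 ± 1.68 (SD, n = 4 each). Among all 20 arrays, sham replicate 1 was the only one in which Ankrd2 was not well above background. The difference was 6.73 ± 1.06 (SE), the 8th highest of 17479, and was 7.55 without sham replicate 2 and 5.58 without untreated replicate 3.

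With drugs, Ankrd1 levels were -3.28, -1.67, -1.02 and -1.71 in high-dose STW5 rats. Low-dose rats had -2.11 (the mean of replicates 1 and 2), -2.41 and -2.88. Omeprazole rats had -3.82, -3.01, -2.07 and -5.05. The high-dose values overlapped those of untreated rats, whereas all low-dose and all omeprazole values lay below them, by gaps of only 0.27 and 0.23. Of all features 13.4% lay wholly below untreated rats with low-dose STW5 and 10.8% with omeprazole. High-dose minus low-dose STW5 was 0.54 ± 1.08 (SE) with overlap. Relative to untreated rats the differences were -2.50 ± 1.00 for high-dose STW5, -3.04 ± 1.08 for low-dose STW5 and -4.06 ± 1.00 for omeprazole (SE). Against sham rats they were 3.93 ± 1.00, 3.38 ± 1.08 and 2.36 ± 1.00 in the same order. Only the low-dose values lay wholly above the sham values, by 0.10, as 4.15% of all features did. The overlap with high-dose STW5 and with omeprazole came from sham replicate 2 alone (-2.97). All other sham values lay at or below -6.46, under every drug value, and were not well above background.

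Ankrd2 levels with high-dose STW5 were -0.42, 0.83, 1.45 and 1.19. With low-dose STW5 they were -1.86, -1.09 and -0.86, and with omeprazole -1.70 in replicate 2, -1.28 in replicate 3, -0.12 in replicate 1 and -3.93 in replicate 4. High-dose rats overlapped untreated rats. Low-dose and omeprazole rats lay wholly below untreated rats, as 13.4% and 10.8% of all features did. The differences from untreated rats were -1.88 ± 1.06 for high-dose STW5, -3.91 ± 1.15 for low-dose STW5 and -4.39 ± 1.06 for omeprazole (SE). The high-dose difference was -0.73 without untreated replicate 3. Against sham rats Ankrd2 was higher by 4.85 ± 1.06 with high-dose STW5 with no overlap, as 12.1% of all features were. It was higher by 2.82 ± 1.15 with low-dose STW5 and 2.34 ± 1.06 with omeprazole, both with overlap. That overlap came from sham replicate 2 alone (-1.64). All other sham values lay at or below -4.36, under every drug value. All high-dose Ankrd2 values lay above all low-dose ones, as for 16.7% of all features, with a difference of 2.03 ± 1.15 whose 95% interval ran from -0.39 to 4.45. With the dose names of the value table it was -1.90, and the differences from untreated rats were -3.81 for high-dose and -1.91 for low-dose STW5.

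Csrp3, the Z-disc LIM protein gene, was bright in every array and showed no separation of the groups. Its levels were 4.46, 5.56, 7.23 and 5.62 in untreated rats, against 5.07, 4.63, 5.21 and 6.03 in sham rats. Untreated replicate 3, highest for Ankrd1 and Ankrd2 as well, was far above the rest, and the untreated minus sham difference of 0.48 ± 0.43 (SE) was -0.02 without it. The group means were 5.29 ± 0.18 with high-dose STW5 (n = 4), 4.99 ± 0.44 with low-dose STW5 (n = 3), 4.90 ± 0.39 with omeprazole (n = 4), 5.72 ± 1.14 without drug (n = 4) and 5.23 ± 0.59 after sham surgery (SD, n = 4). All neighbours in the order of these means overlapped.

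**Figure D1:**
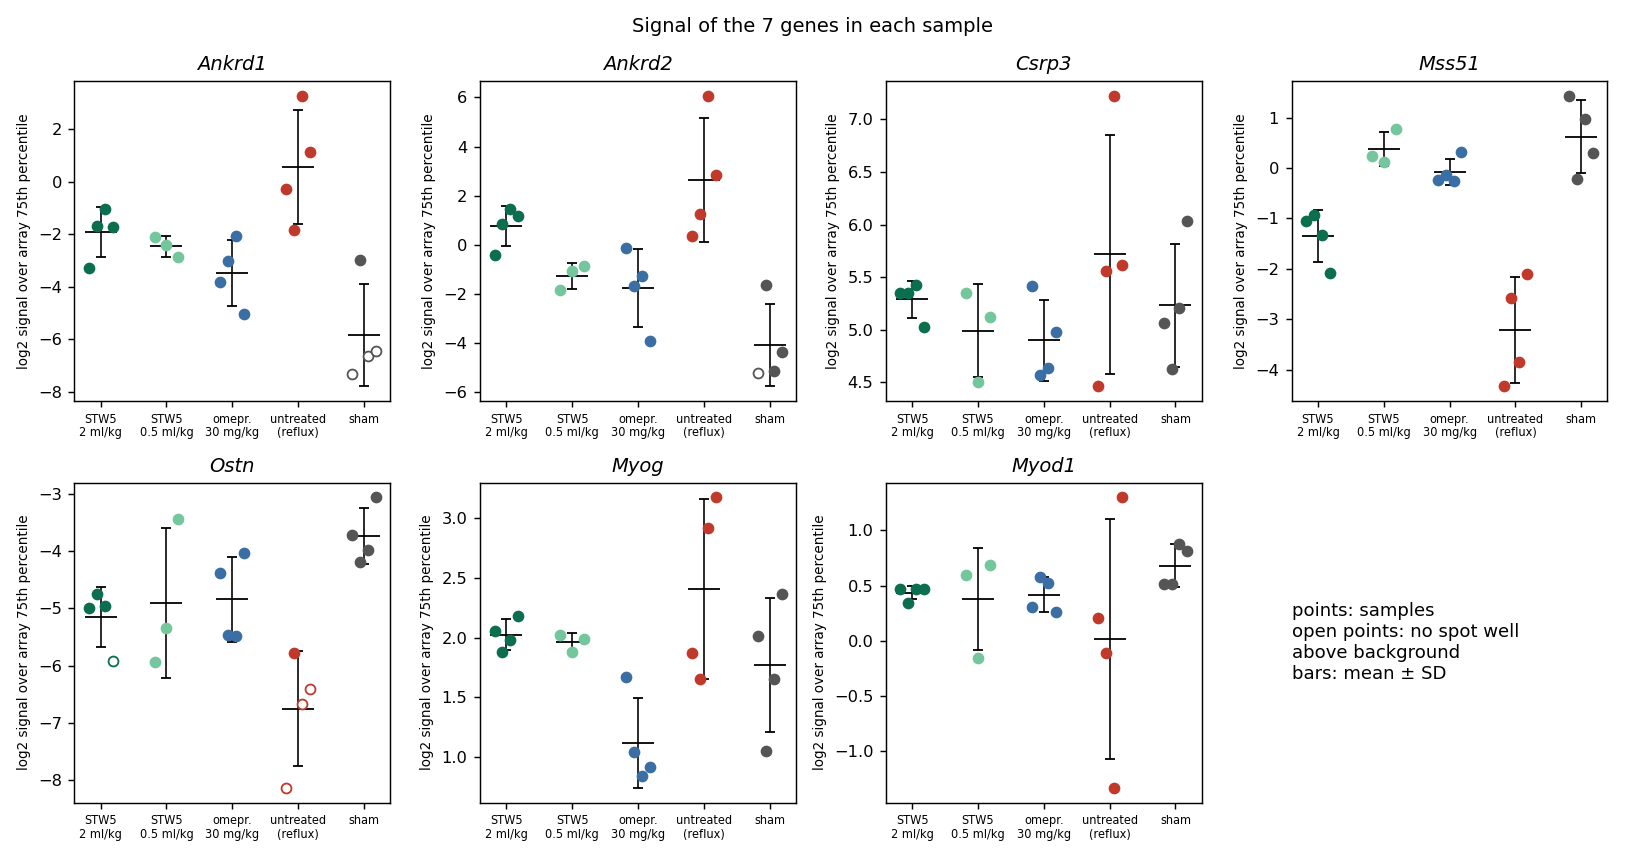
Level of each of the 7 genes (log2 signal over the 75th percentile of the array) in every sample, with the groups from left to right as high-dose STW5, low-dose STW5, omeprazole (omepr.), untreated reflux and sham. Points are samples (low-dose replicates 1 and 2 as their mean), open points had no spot well above background and bars are the mean ± SD. For Ankrd1 and Ankrd2 the 4 untreated points lie above all sham points, for Mss51 and Ostn below them, and for Csrp3, Myog and Myod1 these groups overlap.

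Mss51, the mitochondrial regulator, was lower in untreated than in sham oesophagus. Its levels were -4.33, -2.57, -3.84 and -2.11 in untreated rats, against 1.44, -0.22, 0.98 and 0.30 in sham rats. Every untreated value lay at least 1.90 below the lowest sham value. The mean was 14.3-fold lower in untreated rats, a log2 difference of -3.84 ± 0.44 (SE), the 2nd lowest of 17479. Leaving out any 1 array of either group moved it only between -4.21 and -3.47, and Mss51 was well above background in all 20 arrays.

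The drug groups were ordered for Mss51 with no overlap at 2 of the 4 steps. Levels were -1.06, -0.93, -1.33 and -2.09 with high-dose STW5. They were 0.23, 0.13 and 0.77 with low-dose STW5 and -0.24, -0.14, -0.25 and 0.31 with omeprazole. Omeprazole rats all lay above high-dose rats, and high-dose rats all lay above untreated rats by only 0.02, while sham, low-dose and omeprazole rats overlapped. The differences from untreated rats were 1.86 ± 0.44 for high-dose STW5, 3.59 ± 0.47 for low-dose STW5 and 3.14 ± 0.44 for omeprazole (SE). No overlap in the same direction was found for 13.2%, 22.7% and 19.1% of all features in these 3 comparisons. Against sham rats they were -1.98 ± 0.44 (no overlap, 8.10% of all features likewise), -0.25 ± 0.47 and -0.70 ± 0.44 in the same order.

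For Mss51, 2 of the comparisons lay within a scan set. Low-dose and untreated arrays shared scan set 2, with the difference of 3.59 above. High-dose and omeprazole arrays shared scan set 3, and high-dose STW5 lay below omeprazole by 1.27, a difference of -1.27 ± 0.44 (SE) with no overlap, as for 10.4% of all features. High-dose minus low-dose STW5, which lay in different scan sets, was -1.73 ± 0.47 with no overlap, as for 20.4% of all features. With the dose names of the authors' deposited value table, that difference turned to 1.86.

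Ostn, the osteocrin gene, was dim, and lowest in untreated rats. Its levels were -8.14, -5.78, -6.67 and -6.42 in untreated rats, against -3.71, -4.19, -3.97 and -3.05 in sham rats. The groups did not overlap. Among untreated arrays Ostn was well above background only in replicate 2, and there in 1 of 2 spots, whereas all sham arrays measured it. The difference of -3.02 ± 0.54 (SE) therefore rests on a dim side near background and its size is poorly measured. It was -0.91 with normexp.

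Ostn averaged -5.15 ± 0.52 with high-dose STW5 (n = 4), -4.90 ± 1.31 with low-dose STW5 (n = 3), -4.84 ± 0.74 with omeprazole (n = 4) and -6.75 ± 1.00 without drug (SD, n = 4). Low-dose values ran from -5.93 to -3.43, the full span of the drug-treated samples. Some drug arrays were near background too. No spot was well above it in high-dose replicate 4 and low-dose replicate 2. Only 1 of 2 spots was in low-dose replicates 1 and 3 and omeprazole replicates 2 and 3. The differences from untreated rats, poorly measured on both sides, were 1.60 ± 0.54 for high-dose STW5, 1.85 ± 0.59 for low-dose STW5 and 1.91 ± 0.54 for omeprazole (SE). The low-dose difference was 1.11 without low-dose replicate 4. Only the omeprazole values all lay above the untreated ones, by a gap of 0.30, as 19.1% of all features did. With normexp these differences were 0.15, 0.66 and 0.26. Against sham rats the differences were -1.42 ± 0.54 for high-dose STW5 with no overlap, as for 8.10% of all features. They were -1.17 ± 0.59 for low-dose STW5 and -1.11 ± 0.54 for omeprazole, with overlap.

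Myog, the differentiation factor, differed most between omeprazole and the other reflux groups. Its levels were 1.87, 1.65, 2.92 and 3.18 in untreated rats, against 2.02, 1.05, 1.65 and 2.36 in sham rats. The groups overlapped, with untreated replicates 3 and 4 above every other array. The difference was 0.63 ± 0.32 (SE). Omeprazole rats had 1.67, 1.04, 0.84 and 0.91. Replicate 1 of that group reached slightly into the untreated range, and the difference from untreated rats was -1.29 ± 0.32. High-dose rats, in the same scan set as the omeprazole rats, had 2.05, 1.88, 1.98 and 2.18, which was 0.91 ± 0.32 higher than omeprazole with no overlap, as for 6.78% of all features. Low-dose rats had a mean of 1.96 ± 0.08 (SD, n = 3), and lay 0.85 ± 0.34 (SE) above omeprazole with no overlap, as for 12.4% of all features.

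Myod1, the lineage factor, varied more among untreated rats than between groups. Levels were 0.21, -0.11, -1.34 and 1.30 in untreated rats, against 0.52, 0.51, 0.88 and 0.81 in sham rats. Untreated replicates 3 and 4 were the lowest and the highest of all 20 arrays, although both were high for Myog. The difference of -0.67 ± 0.36 (SE) was -0.22 without replicate 3 and -1.10 without replicate 4. The drug groups had means of 0.44 ± 0.06 with high-dose STW5 (n = 4), 0.37 ± 0.46 with low-dose STW5 (n = 3) and 0.42 ± 0.16 with omeprazole (SD, n = 4). Their differences from untreated rats were 0.42 ± 0.36, 0.36 ± 0.39 and 0.40 ± 0.36 (SE) in that order, and each was just below 0 without untreated replicate 3.

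**Figure D2:**
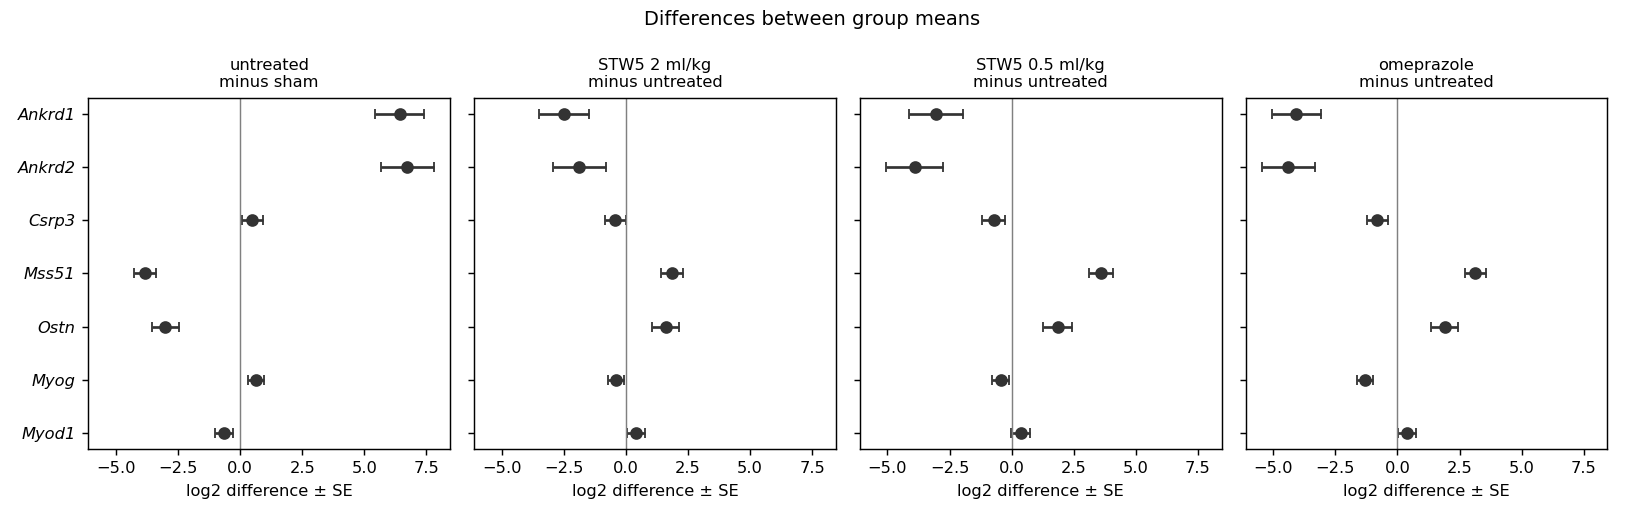
Differences between group means for the 7 genes on the log2 scale, with SE from the fit over all samples; the vertical line is 0. In untreated minus sham, Ankrd1 (6.42) and Ankrd2 (6.73) lie to the right and Mss51 (-3.84) and Ostn (-3.02) to the left. In high-dose STW5, low-dose STW5 and omeprazole minus untreated, Mss51 lies at 1.86, 3.59 and 3.14.

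The drug comparisons and the comparison with sham share the untreated rats, so a gene's surgery and drug differences are not independent. At an adjusted p under 0.05 in limma, 4 of the 7 genes were called in untreated minus sham (Ankrd1, Ankrd2, Mss51 and Ostn), where 29.0% of all features were called. In high-dose STW5 minus untreated 1 of the 7 was called (Mss51), against 14.5% of all features (9.69% higher and 4.81% lower). The same count was 4 in low-dose STW5 minus untreated (Ankrd1, Ankrd2, Mss51 and Ostn), against 34.0% (20.4% higher and 13.5% lower), and 5 in omeprazole minus untreated (those 4 and Myog), against 30.2% (19.5% higher and 10.8% lower). In high-dose minus low-dose STW5 it was 1 (Mss51), against 25.6% (12.6% higher and 13.1% lower). Nothing is read from these counts, since the genes were chosen from these comparisons. The groups lay apart in untreated minus sham for 2 genes above and 2 below, against 10.3% and 12.0% of all features.

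**Figure D3:**
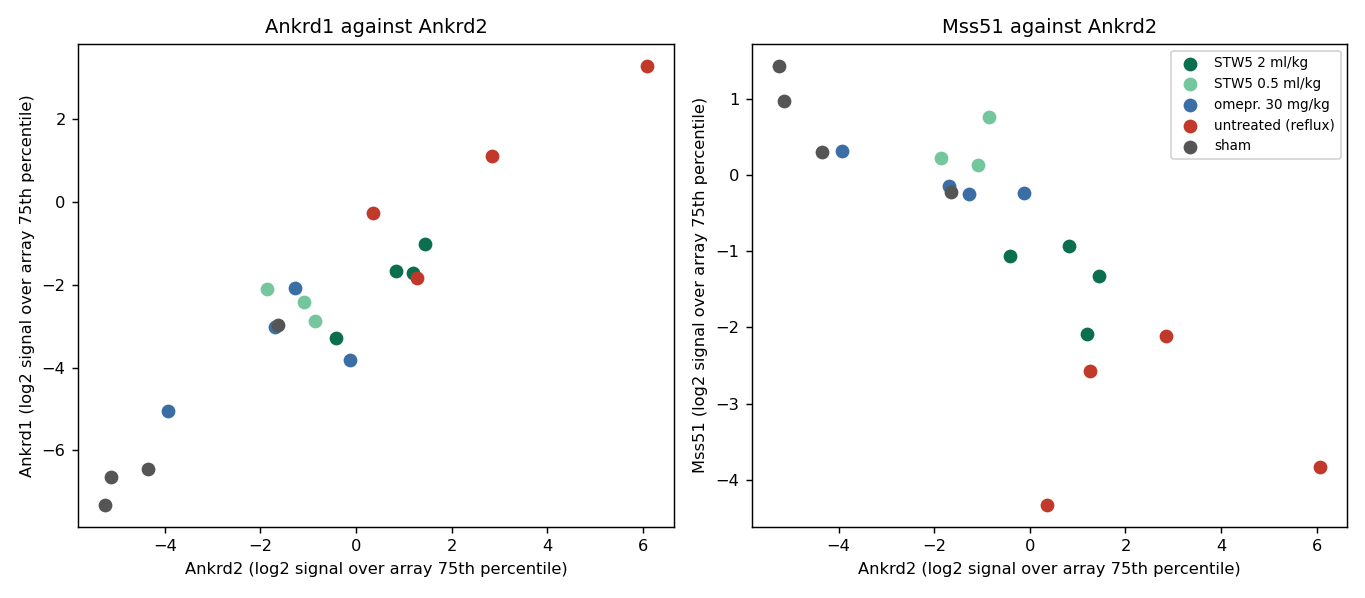
Ankrd1 (left) and Mss51 (right) against Ankrd2 in the 19 samples, all as log2 signal over the 75th percentile of the array, coloured by group. Untreated replicate 3 is at the upper right for Ankrd1, sham replicate 2 lies among the omeprazole points in both panels, and for Mss51 the untreated points lie lowest.

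Some rats stood at the edge of their group for several genes. Omeprazole replicate 4 was the lowest of its group for Ankrd1 and Ankrd2 and the highest for Mss51 (0.31) and Ostn (-4.03). Sham replicate 2 was the highest sham array for Ankrd1 and Ankrd2 and the lowest for Mss51 (-0.22), Ostn (-4.19), Csrp3 (4.63) and Myog (1.05). Its closest match among the arrays of other groups was omeprazole replicate 2, with 2.29 times the spread between spots of a probe, the smallest of all pairs between groups. In the same measure sham replicate 2 lay at 3.35, 4.59 and 7.31 from omeprazole replicates 3, 4 and 1. From sham replicates 3, 4 and 1 it lay at 5.03, 8.16 and 8.60, farther than from omeprazole replicates 2, 3 and 4.

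Contractile genes of the muscle fibre were read as well, as a rough guide to striated muscle and not a measure of its amount. Of 23 fibre markers 21 were measured, and 2 rose and 11 fell in untreated minus sham. Those that rose were Tnnc1 (1.76) and Tnnt1 (1.43), troponin genes of slow fibres, and Actn3, the alpha-actinin of fast fibres, fell by 2.40. These names were chosen after their values were seen, and other genes of slow fibres (Myh7, Tnni1) and of fast fibres (Myh1, Tnnt3) were not called. A fibre score, the mean of the markers with each gene set to 0 at its sham mean, ranged from -0.36 to 0.37 with high-dose STW5, 0.06 to 0.52 with low-dose STW5, -0.53 to 0.33 with omeprazole, -1.38 to -0.33 in untreated rats and -0.49 to 0.40 in sham rats. Taking the score off each array, a step added after seeing the data, left untreated minus sham at 7.09 ± 0.99 for Ankrd1, 7.40 ± 0.97 for Ankrd2, -3.17 ± 0.41 for Mss51 and -2.35 ± 0.46 for Ostn (SE). Relative to the score, Csrp3 was 1.15 ± 0.33 and Myog 1.30 ± 0.31 higher in untreated than in sham rats, and Myod1 differed by 0.00 ± 0.47. The list mixes genes of slow and fast fibres, some of which rose while others fell, so the score is not a measure of fibre amount. In the comparisons with untreated rats, taking the score off made the drug differences smaller for Mss51 and Ostn. With high-dose STW5, low-dose STW5 and omeprazole they were 1.14, 2.63 and 2.68 for Mss51. For Ostn they were 0.88 ± 0.46, 0.89 ± 0.50 and 1.45 ± 0.46 (SE) in that order. Those of Ankrd1, Ankrd2, Csrp3 and Myog were larger in size, and those of Myod1 turned negative. The part of fibre amount in the results for the 7 genes was not tested.

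**Figure D4:**
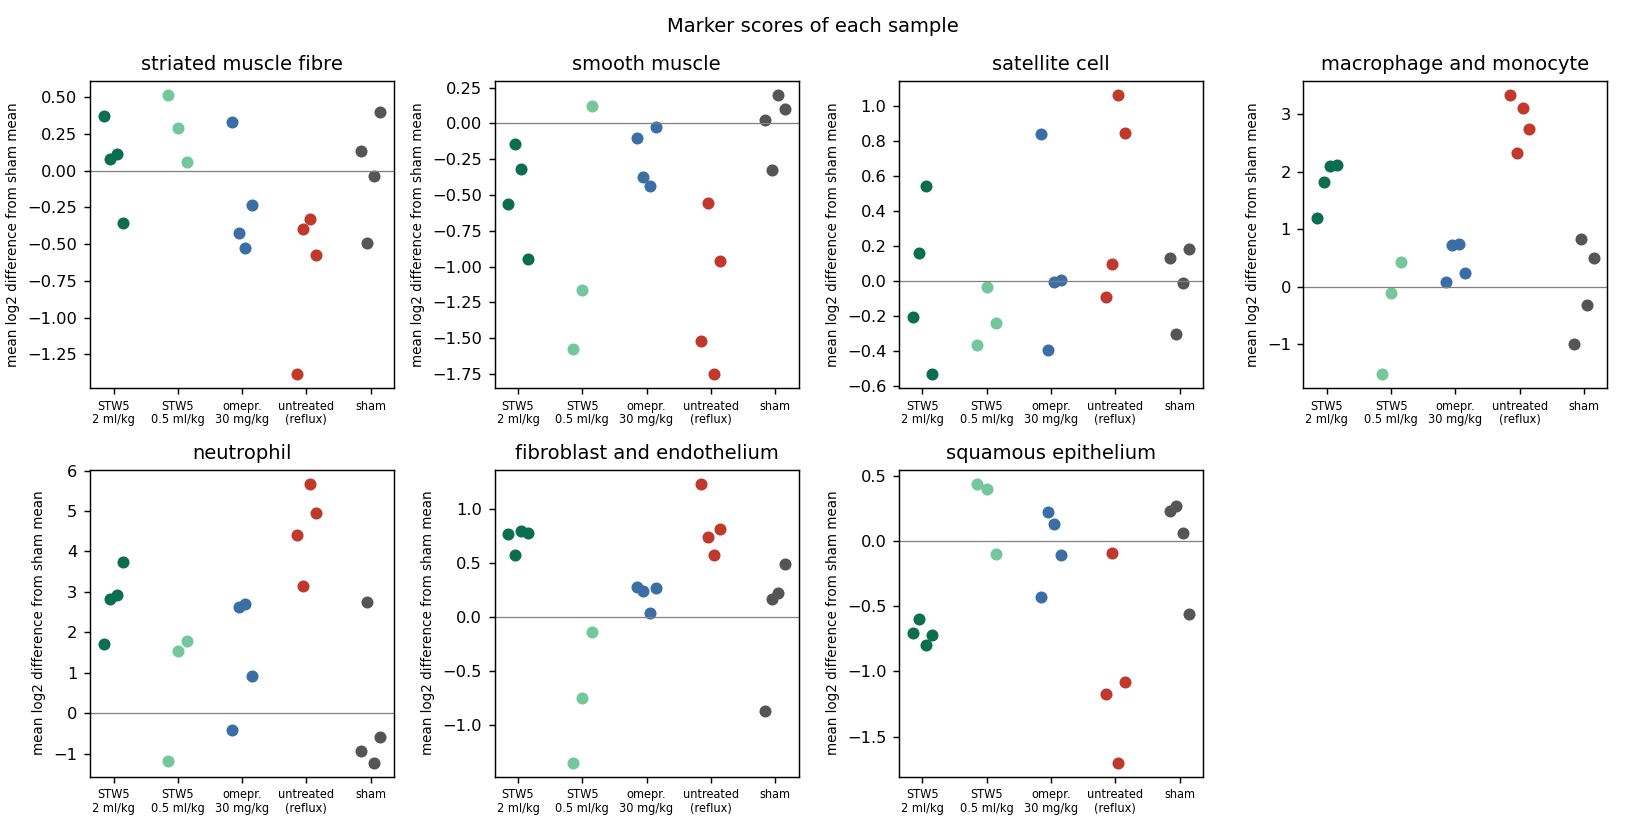
Scores of 7 marker lists in each sample (mean log2 difference of the measured markers from their sham mean), by group from high-dose STW5 on the left to sham on the right. Untreated samples lie above all others for the macrophage list (2.33 to 3.34), and overlap the high-dose samples for the neutrophil list (3.16 to 5.68, against 1.72 to 3.75 with high-dose STW5), where sham replicate 2 is at 2.74 for neutrophils.

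Markers of inflammatory cells were higher in untreated than in sham rats as well. All 10 macrophage and monocyte markers rose in untreated minus sham, and 6 of 8 neutrophil markers. The macrophage score was 1.19 to 2.12 with high-dose STW5, -1.52 to 0.43 with low-dose STW5, 0.08 to 0.74 with omeprazole, 2.33 to 3.34 in untreated rats and -0.99 to 0.82 in sham rats. For neutrophils it was 1.72 to 3.75 with high-dose STW5, -1.17 to 1.78 with low-dose STW5, -0.42 to 2.70 with omeprazole, 3.16 to 5.68 in untreated rats and -1.22 to 2.74 in sham rats, with the highest sham value in replicate 2. Only 3 of 6 satellite cell markers were measured, of which in untreated minus sham 0 passed in limma and 0 had an unadjusted p under 0.05, and Pax7, the defining marker of the muscle stem cell, was well above background in 0 of 20 arrays. Of 8 smooth muscle markers 5 fell in untreated minus sham. Of 9 measured squamous epithelium markers 4 fell, and of 9 fibroblast and endothelium markers 3 rose. The part of these cells in the results for the 7 genes was not tested.

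The surroundings of the 7 genes were read from 6 lists of muscle genes, with counts at an adjusted p under 0.05 in limma over all 17479 features, of which 12.8% rose and 16.2% fell in untreated minus sham, with a median difference of -0.11. Most genes named from the lists were picked by their small p in that comparison, which shares the untreated rats with the drug comparisons. The choice itself favours opposite drug differences for them, so their drug p-values are only a description. Among 26 measured partners of titin, the Z-disc and stretch (of 30 listed), 1 rose and 10 fell, with a median of -0.67. Smpx, a small stretch-responsive muscle protein, fell by 1.39 (adjusted p = 0.00487), Nebl, the Z-disc protein nebulette, fell by 1.41 (adjusted p = 0.00404), and the M-band genes Myom1 and Myom2 fell by 1.36 and 1.51 (adjusted p = 0.00854 and 0.00647). The third muscle ankyrin repeat gene, Ankrd23, chosen after its value was seen, differed by -0.36 ± 0.75 (SE). It did not share the large rises of Ankrd1 and Ankrd2, and its own direction is not settled. The count of falls ran from 5 without sham replicate 4 or untreated replicate 1, through 6 without sham replicate 1, to 12 without sham replicate 2. With drugs, 6 partners rose and 2 fell in low-dose STW5 minus untreated, and 6 rose and 1 fell in omeprazole minus untreated. Of all features 20.4% rose and 13.5% fell with low-dose STW5, and 19.5% rose and 10.8% fell with omeprazole. With high-dose STW5 9.69% of all features rose and 4.81% fell. In high-dose STW5 minus untreated limma called 0 partners, and before adjustment 6 passed 0.05, all of them higher. Without untreated replicate 1 the rises numbered 2 with low-dose STW5 and 2 with omeprazole, as they did without low-dose replicates 1 and 2 and without omeprazole replicate 1, and 3 without omeprazole replicate 4. The falls with low-dose STW5 were 1 without untreated replicate 3 or low-dose replicate 3, and neither was called without low-dose replicates 1 and 2. The 1 fall with omeprazole was not called without omeprazole replicate 4. The medians were 0.17, 0.61 and 0.62 for high-dose STW5, low-dose STW5 and omeprazole, beside 0.02, 0.21 and 0.15 over all features.

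YAP and TAZ, the transcriptional partners that respond to cell tension and act on Ankrd1, have a set of common targets. Of 17 measured (of 21), 6 rose and 1 fell in untreated minus sham, with a median of 0.04. The 1 fall was not called without sham replicate 2 or 3 or untreated replicate 1, 3 or 4, and 2 fell without untreated replicate 2. The matricellular genes Ccn1 and Ccn2 rose by 2.27 ± 0.48 and 1.54 ± 0.30 (SE, adjusted p = 0.00258 and 0.00153). Myof, a membrane repair gene, rose by 1.05, and Fjx1 rose by 1.38. In high-dose STW5 minus untreated 3 fell, in low-dose STW5 minus untreated 6 fell and 2 rose, and in omeprazole minus untreated 4 fell and 1 rose, with medians of -0.28, -0.14 and -0.16. Of all features 4.81%, 13.5% and 10.8% fell and 9.69%, 20.4% and 19.5% rose in the same order. The high-dose falls were down to 1 without untreated replicate 1 or 3 or high-dose replicate 1, 2 or 4. The rises were 1 with low-dose STW5 without untreated replicate 4 or low-dose replicates 1 and 2, and 2 with omeprazole without untreated replicate 2 or 3. Ccn1, picked by its small p in untreated minus sham, fell by 2.22 with low-dose STW5. Ccn1 fell by 2.53 with omeprazole, and its difference with high-dose STW5 was -0.94 ± 0.48 (adjusted p = 0.198).

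The regeneration and embryonic muscle list had 8 genes that rose and 2 that fell among 24 measured (of 27), with a median of 0.34 in untreated minus sham. Id1 and Id2, inhibitors of factors such as MyoD, rose by 1.32 and 1.67 (adjusted p = 0.00344 and 0.00393). Tnnt2, the cardiac troponin T that immature skeletal muscle also makes, rose by 2.39 ± 0.54, and Mef2c, a partner of Myog, fell by 1.21 ± 0.27 (SE, adjusted p = 0.00373 and 0.00367). Among genes chosen after their values were seen, the fusion gene Mymk and the fetal acetylcholine receptor subunit gene Chrng rose by 1.75 and 2.12, and embryonic myosin Myh3 differed by 1.85 ± 1.24 without passing the test. The fell count was 4 without sham replicate 2 and 1 without any of sham replicates 1, 3 or 4 or untreated replicates 1 or 3.

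With drugs, 3 genes of the same list fell in high-dose STW5 minus untreated, 6 fell and 3 rose in low-dose STW5 minus untreated, and 8 fell in omeprazole minus untreated, with medians of -0.23, -0.20 and -0.35. Of all features 4.81%, 13.5% and 10.8% fell and 9.69%, 20.4% and 19.5% rose in the same order. The falls with omeprazole were 5 without untreated replicate 3 or omeprazole replicate 1 or 4, those with high-dose STW5 were 1 without high-dose replicate 1, and the rises with low-dose STW5 were 1 without untreated replicate 1 or 3, low-dose replicates 1 and 2, or low-dose replicate 4. Tnnt2 and Id2 were picked by their small p in untreated minus sham. Tnnt2 fell by 2.01 with omeprazole (adjusted p = 0.00983), while its differences of -0.87 with high-dose and -0.91 with low-dose STW5 did not pass the test. Id2 fell in all 3 drug comparisons, by 1.31 with high-dose STW5, 1.87 with low-dose STW5 and 1.47 with omeprazole. Whether the drug groups differed from each other in these genes was not tested beyond the comparison of doses. There 2 genes of the list rose in high-dose minus low-dose STW5, as did 12.6% of all features.

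Of 18 measured genes of denervation and muscle atrophy (of 22), 5 rose and 3 fell in untreated minus sham, with a median of -0.16. Runx1, a transcription factor induced in denervated muscle, rose by 2.37 ± 0.41 (SE, adjusted p = 0.000761). Ncam1, an adhesion molecule spread over denervated fibres, rose by 1.76, and the ubiquitin ligase gene Fbxo40 fell by 1.29. Runx1 is also made by blood cells, whose markers rose in the same comparison. The atrophy ligase gene Trim63, chosen after its value was seen, differed by 0.14 ± 0.77 (SE). Without sham replicate 1, sham replicate 3 or untreated replicate 1 the counts were 3 and 1, and without untreated replicate 3 there were 6 falls.

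Regulators of mitochondrial biogenesis and muscle metabolism, the setting of Mss51, had 21 measured members (of 24). In untreated minus sham 1 rose and 9 fell, with a median of -0.41. Ucp3, a mitochondrial carrier of muscle, fell by 2.12 ± 0.29, and Prkag3, the muscle subunit of AMP-activated kinase, fell by 2.16 ± 0.36 (SE, adjusted p = 0.000223 and 0.000522). Ppargc1b, a coactivator of mitochondrial genes, fell by 1.39 (adjusted p = 0.00118). Nrf1 was the gene that rose, by 0.59 on its brighter probe and with 0.24 on its other probe. Without sham replicate 1 the falls numbered 5.

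In the drug comparisons 5 of these regulators rose and 1 fell in high-dose STW5 minus untreated, 7 rose in low-dose STW5 minus untreated, and 8 rose and 1 fell in omeprazole minus untreated, with medians of 0.37, 0.40 and 0.46. Of all features 9.69%, 20.4% and 19.5% rose and 4.81%, 13.5% and 10.8% fell in the same order. The rises with high-dose STW5 were 3 without untreated replicate 1 or high-dose replicate 1, 2 or 3, and those with low-dose STW5 were 4 without low-dose replicates 1 and 2. The 1 fall with high-dose STW5 was not called without untreated replicate 3 or high-dose replicate 1. Ucp3 and Prkag3 were picked by their small p in untreated minus sham, which shares the untreated rats, so the choice favours opposite drug differences. Ucp3 rose by 2.09 ± 0.29 with high-dose STW5, 1.52 ± 0.31 with low-dose STW5 and 1.67 ± 0.29 with omeprazole (SE, adjusted p = 6.61e-05, 0.00162 and 0.000425). Prkag3 rose by 1.56, 1.62 and 1.68 in the same order. For Ucp3 the high-dose minus low-dose difference was 0.56 ± 0.31 (adjusted p = 0.19), against the -1.73 of Mss51.

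Of 14 measured genes for secreted muscle factors and natriuretic peptide receptors (of 17), the setting of Ostn, 1 rose and 5 fell in untreated minus sham, with a median of 0.07. Npr1, the guanylyl cyclase receptor for natriuretic peptides, rose by 1.49 ± 0.34 (SE, adjusted p = 0.00448). Acvr2b, the activin and myostatin receptor, fell by 1.13, and Fndc5, the irisin precursor gene, and Igfbp5, a binding protein of insulin-like growth factors, fell by 0.88 and 0.86. Npr3, the receptor osteocrin binds, chosen after its value was seen, differed by -0.01 ± 0.72 (SE). The surgery count of falls was 2 without sham replicate 1 or 3 and 3 without untreated replicate 3 or 4.

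**Figure D5:**
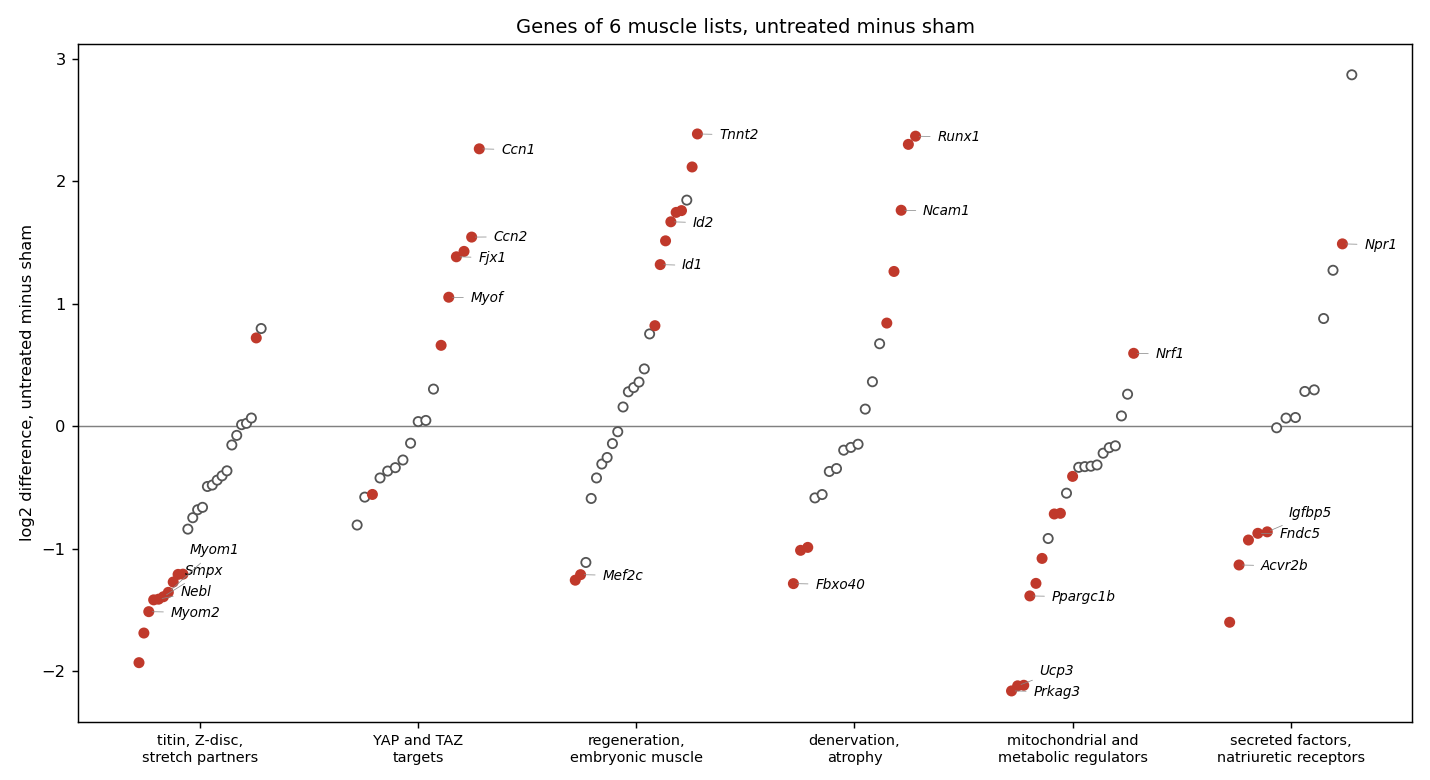
Log2 difference, untreated minus sham, of each measured gene in 6 muscle lists; filled red points passed an adjusted p under 0.05 in limma and open points did not, and genes the text names by their small p are labelled. The titin and mitochondrial lists have 10 and 9 filled points below 0, and the YAP and TAZ and regeneration lists have 6 and 8 above 0.

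The genes whose levels followed each of the 7 most closely over the 19 samples were ranked by Pearson r among 12705 named genes, leaving out the 7 themselves (Ankrd1 with Ankrd2 had r = 0.944). These samples share groups, scan sets and tissue makeup, and the values are a description. Ankrd2 was followed by Fkbp5 (r = 0.949), Dio2 (r = 0.946), which makes the active thyroid hormone, and Erp27 (r = 0.935). Ankrd1 was followed by Pold3 (r = 0.928), the matrix gene Tnc (r = 0.919) and Sft2d1 (r = 0.918). For Csrp3 the closest were Lmcd1 (r = 0.945), a LIM domain gene, Thpol1 (r = 0.938) and Retreg1 (r = 0.929). Mss51 went with Trim7 (r = 0.962), Cul3 (r = 0.958) and Fdft1 (r = 0.952), which makes squalene. Ostn went with S100b (r = 0.956), Plekhb1 (r = 0.937) and Lrrc66 (r = 0.928). For Myog the closest were Ubfd1 (r = 0.888), Zfp568 (r = 0.888) and Gorab (r = 0.869), and for Myod1 they were Tcp1 (r = 0.869), Cdc23 (r = 0.825) and Vangl1 (r = 0.813).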

How the data were processed

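Total RNA of 20 rat oesophagi was labelled with Cy3 and hybridised to one-colour Agilent arrays, per the labels' protocols. Per the file headers, the deposited scanner files hold an intensity per feature with background subtracted, written by version 10.7.3.1 of Agilent Feature Extraction. A ratio to the array's own median makes up the authors' deposited series table, which served only as an alternative. Spots of a probe were averaged as log2 values without outlier spots, giving 30367 probes, of which 11 were dropped, and the log2 75th percentile of the array was subtracted. Probes were kept when 4 or more arrays had at least 50% of the probe's spots well above background (19914 probes), and a gene took its brightest probe, which left 17479 genes or unnamed probes. Mss51, Ankrd1, Ankrd2, Csrp3, Ostn, Myog and Myod1 were matched by array name, Mss51 through its older name. A single fit over the 5 groups (lmFit and eBayes in limma 3.58.1, under R 4.3.3, the package data.table at version 1.17.8) was followed by Benjamini-Hochberg adjustment over all features, on 19 samples and 14 residual degrees of freedom. The fit was tested on simulated data. The number of arrays limits the precision, with a median SE of 0.245 (0.265 with low-dose STW5).

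The 7 genes and the 6 lists were chosen with earlier results of these data known. The text names the 7 genes, the 4 genes of each list with the smallest p in untreated minus sham, the 3 genes most like each of the 7, and others said to be chosen after their values were seen; 1 gene of the denervation list is not reported here. Array names of genes were updated through the GRCr8 gene table. Replicate numbers were not used to pair the samples in the main fit. Same-numbered arrays correlated above 0.1 in 1 to 3 of 4 pairs per comparison. In high-dose minus low-dose STW5 the correlations ran from 0.09 to 0.25, and 6 of 8 samples correlated best with their own number. Pairing by number was therefore not excluded. Alternatives were normexp, quantile and median scaling, 2 other filters, probe means, only the groups compared, all 20 arrays, the replicate number as a block, array weights, the value table and leaving out each replicate. Blood samples named in the series text were not analysed here.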

Additional observations from a re-analysis of the deposited data

Results flagged for a closer look

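Of 28 groups of 4 samples tested for a value that stands apart, over the 7 genes, 1 did. Myod1 in high-dose STW5 replicate 2 was at 0.34, against 0.47 in each of the other 3 high-dose arrays, so that the gap to the nearest was 0.951 of the group's range, above Dixon's 95% limit. Chance gives about 1 in 20 such groups, and the whole group spans only 0.13 on the log2 scale.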

How the results depend on the processing

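Under the 686 alternative settings of single gene differences, 23 changed sign, and 27 moved by more than the spread between replicates. The 1 called difference that turned was Mss51 in high-dose minus low-dose STW5, 1.86 with the value table, which exchanges the doses. With normexp, Ankrd1 in untreated minus sham was 3.72, Ostn -0.91 and Mss51 -3.03. Genes called in untreated minus sham numbered 5068, and 2472 with only these groups fitted. In high-dose STW5 minus untreated they numbered 2534, and 6339 with the value table. In low-dose STW5 minus untreated they numbered 5942, with 9003 without a filter, 3065 with only these groups fitted and 2307 with the value table. In high-dose minus low-dose STW5 they numbered 4482, with 7209 under normexp, 8329 without a filter and 8242 with array weights. Of the 7 genes, high-dose minus low-dose STW5 called 1, and 2 under normexp, with only these groups and with array weights. High-dose STW5 minus untreated called 1, with 2 under normexp or array weights and 4 with the value table. Low-dose STW5 minus untreated called 4, with 1 with only these groups (the fit within scan set 2), 2 with array weights and 1 with the value table. Leaving out 1 replicate gave 3712 to 5318 called genes for untreated minus sham, 1411 to 3200 for high-dose STW5 minus untreated, 3966 to 6011 for low-dose STW5 minus untreated, 4024 to 5561 for omeprazole minus untreated and 1894 to 5296 for high-dose minus low-dose STW5. The count of 1411 was without high-dose replicate 1. The lowest of the last counts was without low-dose replicates 1 and 2, and 2376 remained without low-dose replicate 3. The calls among the 7 genes were then 4 to 5, 1 to 3, 2 to 4, 4 to 6 and 1 to 1 in the same order. In high-dose STW5 minus untreated 3 were called without untreated replicate 2 and 2 without high-dose replicate 4, and in low-dose STW5 minus untreated 2 without low-dose replicates 1 and 2 or low-dose replicate 4. The cause of these changes was not tested. With the replicate block on all 20 arrays the calls numbered 5491, 2933, 7663, 5733 and 6540 in that order, and those among the 7 genes 4, 1, 4, 5 and 1. Samples correlated best with their own number in 1, 2, 4, 3 and 6 of 8 cases. List counts moved by over 1.5 times in 308 of 1116 cases.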
